A study of Mus musculus with 12 samples.

Results

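Pdgfra, the gene of platelet-derived growth factor (PDGF) receptor alpha, and the genes of the 4 PDGF ligands, Pdgfa, Pdgfb, Pdgfc and Pdgfd, were followed through maps of acetylated lysine 8 of histone H4 (H4K8ac) in mouse oligodendrocyte progenitor cells (OPCs). Members were taken by gene name: a peak belonged to a member where the authors' peak annotation gave that name as its gene. Of the 5 members, 4 had at least 1 peak, among 23433 genes that had one in any library, and they held 83 of 269580 peaks. Pdgfd had none.

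The libraries came from chromatin immunoprecipitation followed by sequencing (ChIP-seq) of primary forebrain cells, crosslinked with paraformaldehyde, of Pdgfr{alpha}H2BEGFP mice. All 6 libraries share this genotype. Neonatal cells were collected at postnatal day 5 and adult cells at postnatal day 60, with 3 libraries, called biological replicates 1 to 3 in the labels, at each age. The 6 input libraries of the series were not analysed here. The reporter is a fusion of histone H2B with green fluorescent protein placed under control of Pdgfra, so the gene described first is also the one by which the cells were sorted. Any forebrain cell that has the reporter protein, such as a fibroblast of the meninges or vessels, can enter such a sort. The purity of the sort was not tested here, so some cells without the reporter may also be present. The labels do not say how many animals went into a library, or whether the libraries came from separate animals. The permutation p-values below therefore compare only these libraries.

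PDGF receptor alpha is a receptor tyrosine kinase at the surface of OPCs. Its ligand PDGF-A, which neurons and astrocytes release, drives OPCs to divide, survive and migrate, and the receptor is lost as the cells become oligodendrocytes. PDGF-C also acts through receptor alpha after a protease has removed its CUB domain, PDGF-B binds both receptors, and PDGF-D acts mainly through receptor beta. H4K8ac is found at active promoters and enhancers, where bromodomain proteins can bind it.

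The 250 bp upstream of the RefSeq start of a gene show where these promoters differ in base composition and in acetylation. The sequences below are from RefSeq (GRCm38.p6), written 5′ to 3′ on the strand of the gene, with each CG dinucleotide in capitals. The Pdgfra window, chr5:75152001-75152250 on the plus strand, is printed because it lay under no peak in any of the 6 libraries; this choice was made after its values were seen. The Pdgfa sequence, chr5:138995038-138995194 on the minus strand, is the part of its window upstream of a transcript start that the authors' annotation places at position 138995037. Both the Pdgfra and the Pdgfa window lie inside the RefSeq extent of their gene, which begins farther upstream. The Pdgfc window, chr3:81036166-81036415 on the plus strand, lay under a peak at 1 age only.
Pdgfra: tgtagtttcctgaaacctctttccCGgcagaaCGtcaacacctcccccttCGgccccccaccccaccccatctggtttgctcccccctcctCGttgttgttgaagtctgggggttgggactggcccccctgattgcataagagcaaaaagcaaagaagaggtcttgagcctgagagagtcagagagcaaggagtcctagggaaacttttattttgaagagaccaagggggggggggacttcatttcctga
Pdgfa: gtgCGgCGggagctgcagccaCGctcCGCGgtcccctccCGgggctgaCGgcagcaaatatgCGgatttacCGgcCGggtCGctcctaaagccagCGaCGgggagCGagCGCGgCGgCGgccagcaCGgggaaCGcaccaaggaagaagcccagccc
Pdgfc: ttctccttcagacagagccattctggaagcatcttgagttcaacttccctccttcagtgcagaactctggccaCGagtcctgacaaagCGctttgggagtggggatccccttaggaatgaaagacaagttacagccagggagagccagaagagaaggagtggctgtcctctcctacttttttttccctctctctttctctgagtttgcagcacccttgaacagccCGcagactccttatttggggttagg

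The Pdgfa window was rich in CG, and those of Pdgfra and Pdgfc were below the median. Here and below, the 3 values of an age follow the order of its replicates 1, 2 and 3. The full Pdgfa window had 28 CG dinucleotides and a GC content of 72.4%, and 92.4% of the 32851 RefSeq windows had fewer CG. Pdgfra had 4 CG (37.8% of windows had fewer) and Pdgfc 3 (29.0%), against a median of 6. Peaks covered 0, 250 and 100 bp of the Pdgfa window in the neonatal libraries and all 250 bp in each adult library. A further RefSeq window of Pdgfa, before a start at position 138994281, had 19 CG. Peaks covered 0 bp of that window in each neonatal library and 250 bp in each adult library. They covered none of the Pdgfc window in the neonatal libraries and 91, 250 and 250 bp in the adult libraries. Over all genes, 6.26% to 25.5% of the windows lay under a peak in the neonatal libraries and 33.3% to 36.7% in the adult libraries. Of 5 motifs searched on both strands, the GC box GGGCGG occurred 2 times in the full Pdgfa window, and 32.7% of all windows held it. Neither match lies within the printed Pdgfa sequence. The E-box CANNTG occurred 1 time in the Pdgfra window (66.2% of windows held it). The SOX-type motif AACAAT (9.42% of windows), the CCAAT box (33.8%) and the TATA box TATAAA (12.4%) had no match in any of these 3 windows, and none of the 5 motifs matched in that of Pdgfc. The Pdgfd window held 1 TATA box.

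Every value below is a length of DNA under the peaks of 1 library, and the peak lists differed widely in size. The neonatal lists held 9097, 31189 and 7353 peaks that covered 2.98, 13.7 and 2.33 Mb, and the adult lists 72278, 72661 and 77002 peaks that covered 41.9, 44.3 and 60.9 Mb. Neonatal replicate 2 stood apart from the other 2 neonatal libraries in this respect. Every adult library exceeded every neonatal library in covered length for 60% of the 23433 genes, and the reverse held for 0.303%. Of 10 OPC markers, 10, 10 and 7 had a promoter peak in the neonatal libraries and 9, 8 and 9 in the adult libraries. Most markers of the labelled cell type, a list that includes Pdgfra, were thus marked at both ages in the full lists. Of 10 markers of mature oligodendrocytes, 2, 3 and 1 had one in the neonatal libraries, against all 10 in each adult library. Of 10 fibroblast markers, 0, 6 and 0 had one in the neonatal libraries and 5, 4 and 3 in the adult libraries, and of 10 microglial markers none in any neonatal library and 1 in each adult library. Neuronal markers counted 0, 5 and 1 of 10 in the neonatal libraries and 6, 4 and 4 in the adult ones, astrocyte markers 3, 8 and 2 against 6, 4 and 7, and pericyte and endothelial markers 0, 2 and 0 against 2, 2 and 3. Among the 7353 strongest peaks of each list, OPC markers with a promoter peak numbered 10, 8 and 7 in the neonatal libraries. In the adult libraries they numbered 4, 4 and 5. Mature oligodendrocyte markers then numbered 2, 2 and 1 against 7, 8 and 7. Of the 23433 genes, 6973, 16202 and 6058 had an assigned peak of any class in the full neonatal lists. In the full adult lists 19242, 18877 and 19645 had one. The share of all genes with a promoter peak in each library was not computed, in the full lists or among the strongest peaks. The marker counts therefore lack that background. In pooled cells, a mark on fewer cells and less of the mark per cell cannot be told apart. The part of list size, of the oligodendrocyte markers and of the other markers in the results below was not tested.

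At Pdgfra, the receptor gene (ENSMUSG00000029231.15, chr5:75151322-75198206, plus strand, RefSeq start at 75152251), the mark shared by all 6 libraries lay downstream of the RefSeq start. In the first region after the start each neonatal library had more bases under peaks than each adult library (991 to 2460 bp against 424 to 974 bp), although the neonatal lists were far shorter. The edges of this region were set by neonatal peaks, and the closest values, 991 and 974 bp, differed little. Over the whole gene the ages overlapped. Assigned peaks covered 1638, 6124 and 513 bp in the neonatal libraries and 1586, 1205 and 2119 bp in the adult libraries. The highest and the lowest of the 6 values were both neonatal, so the ages overlapped. The means were 2758 ± 2969 bp in neonatal cells and 1637 ± 459 bp in adult cells (SD, n = 3 each; exact two-sided permutation test, p = 0.80, adjusted p = 0.992 over 23433 genes). The difference, adult minus neonatal, was -1122 bp, and without neonatal replicate 2 it was 561 bp, the other direction (exact p = 0.50).

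All but 1 of the assigned Pdgfra peaks were of the authors' promoter class, which takes in peaks up to 3000 bp from a transcript start. The exception was a distal intergenic peak of 507 bp in neonatal replicate 2 (chr5:75148556-75149062). The annotation gives Pdgfra more than 1 start: the peaks were nearest to 6 different transcript starts, from +41 to +4582 bp of the RefSeq start. Promoter peaks at this gene therefore include peaks well inside the RefSeq gene body.

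**Figure D1:**
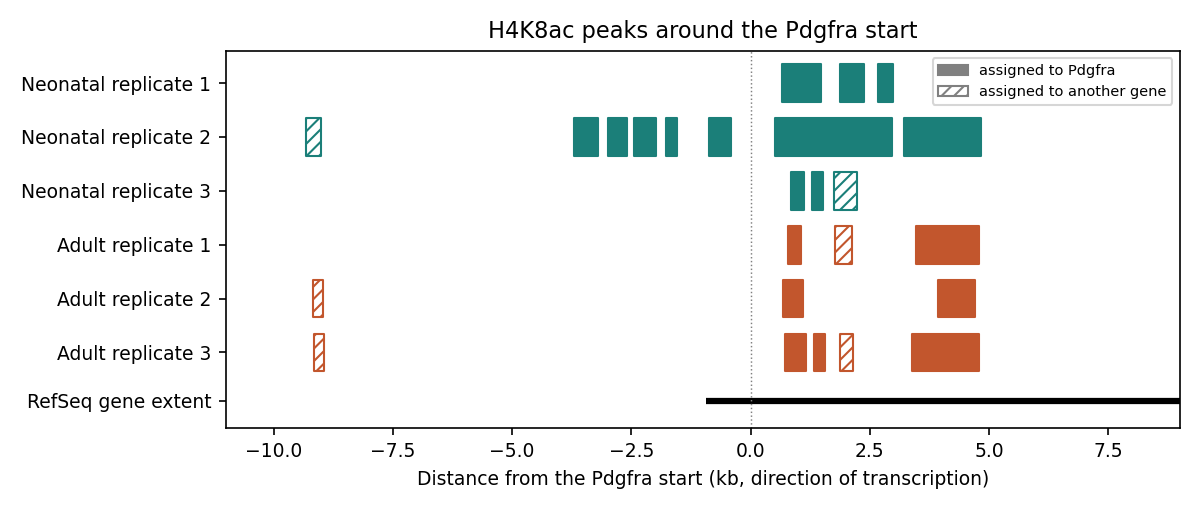
Each bar is 1 H4K8ac peak around the Pdgfra start in 1 library (rows), placed by its distance from the RefSeq start in kb; filled bars are assigned to Pdgfra and hatched bars to another gene. A region shortly after the start carries a peak in all 6 libraries, and the peaks between -3695 and -415 bp are those of neonatal replicate 2.

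Taken by position, whatever gene the annotation named, the mark around Pdgfra fell into 10 separate regions, of which 1 had a peak in all 6 libraries. This region ran from +508 to +2978 bp (chr5:75152759-75155229). Its edges are those of peaks of neonatal replicates 2 and 1, so the lengths in it only describe these libraries. Peaks covered 1638, 2460 and 991 bp of it in the neonatal libraries and 640, 424 and 974 bp in the adult libraries. Each neonatal library covered more of it than each adult library, although neonatal replicate 3 exceeded adult replicate 3 only narrowly. In neonatal replicate 3 and adult replicates 1 and 3 a part of these bases is assigned to the gene model Gm42802, so these bases are not in the assigned lengths above. A stretch of 212 bp within this region, chr5:75153096-75153307 (+845 to +1056 bp), was under a Pdgfra peak in every library. At this stretch the authors' fold enrichment of the peak was 5.79, 9.58 and 3.67 in the neonatal libraries and 5.78, 3.50 and 2.59 in the adult libraries. Here and below, a fold enrichment describes a peak within its own list, so the ages are not compared by it.

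A second region, from +3227 to +4827 bp (chr5:75155478-75157078), had a peak in each adult library and in neonatal replicate 2. Peaks covered 1306, 781 and 1423 bp of this region in the adult libraries, and 0, 1601 and 0 bp in the neonatal libraries. The ages overlapped here, with the highest value in neonatal replicate 2. It held the strongest Pdgfra peak of each adult library, at an authors' fold enrichment of 6.14, 5.20 and 5.97. The strongest Pdgfra peak of each neonatal library lay in the first region. None of the 10 regions was marked in adult libraries only: of the 7058 bp under any peak, 6998 bp were under a neonatal peak and 2758 bp under an adult peak. Of the 4300 bp under a neonatal peak and no adult peak, 3551 bp were marked by neonatal replicate 2 alone, including 5 upstream regions between -3695 and -415 bp.

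Within 3000 bp of the Pdgfra start, a window chosen after the assignment to neighbouring gene models had been seen, peaks covered 1638, 4016 and 991 bp in the neonatal libraries and 640, 424 and 974 bp in the adult libraries. The ages did not overlap, with means of 2215 ± 1593 bp and 679 ± 277 bp (SD, n = 3 each) and a neonatal mean 3.26 times the adult mean. Without neonatal replicate 2, the remaining neonatal values of 1638 and 991 bp still lay above the adult values, but the ratio of means was 1.93 (exact p = 0.20). With 3 libraries against 3 the exact two-sided permutation test cannot go below p = 0.10, which was reached here (adjusted p = 0.143 over 17453 RefSeq starts). Of those starts, 0.235% had every neonatal library above every adult library, and 69.6% had the reverse. Over the gene body with 10000 bp on both sides, which takes in the second region, the lengths were 1638, 6987 and 991 bp against 1946, 1411 and 2609 bp. These overlapped (exact permutation test, p = 0.90, adjusted p = 1.00 over 26558 genes), where 0.166% of genes had every neonatal library above every adult library and 69.7% the reverse.

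Set against the total covered length of each library, the Pdgfra share was higher in neonatal cells. Assigned peaks took 550, 446 and 219.9 bp per Mb covered in the neonatal libraries and 37.9, 27.2 and 34.8 bp per Mb in the adult libraries. The neonatal mean, 406 ± 169 bp per Mb, was 12.2 times the adult mean of 33.3 ± 5.49 bp per Mb (SD, n = 3 each; exact permutation test, p = 0.10, the lowest it can give). Since the adult lists cover more of the genome, this measure is lower in adult cells for any gene that did not gain length in step. Pdgfc, whose assigned length was higher in each adult library, was by this measure also higher in each neonatal library. The shares of all genes with either order per Mb covered were not computed. When each list was limited to its 7353 strongest peaks by the authors' −log10 p, the length of the shortest list, a Pdgfra promoter peak remained in all 3 neonatal libraries and in 0 adult libraries. This was so for 4.59% of the 9904 genes with a promoter peak among the strongest of any library. Neonatal replicate 3 is that shortest list, so all its peaks count, and its strongest Pdgfra peak stood at place 6252 of 7353.

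At Pdgfa, the gene of the main OPC mitogen (ENSMUSG00000025856.15, chr5:138976014-139000792, minus strand, RefSeq start at 138994944), the neonatal mark was confined to the start within the window examined, while the adult mark ran over the start, the introns, the 3′ end and the sequence beyond it. By assignment, neonatal replicates 1, 2 and 3 had 0, 1 and 0 peaks and adult replicates 1, 2 and 3 had 21, 17 and 16. The neonatal zeros come from the naming of the nearest gene: replicates 1 and 3 each had a peak just upstream of the Pdgfa start, assigned to 6330403L08Rik. Positions are therefore used for Pdgfa below.

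Over the gene and 10000 bp on both sides, peaks covered 632, 1692 and 485 bp in the neonatal libraries and 10487, 12376 and 16533 bp in the adult libraries. Each adult value exceeded each neonatal value, as was so for 69.7% of the 26558 RefSeq genes. The means were 936 ± 659 bp and 13132 ± 3093 bp (SD, n = 3 each), a ratio of 14.0 (exact permutation test, p = 0.10, which is the lowest it can give; adjusted p = 0.143). Without neonatal replicate 2 the ratio was 23.5. By assignment the means were 564 ± 977 bp and 13901 ± 3630 bp (exact permutation test, p = 0.10; adjusted p = 0.166 over 23433 genes). Against the total covered by each library the gap narrowed: 212, 123 and 207.9 bp per Mb in the neonatal libraries and 251, 279.6 and 271 bp per Mb in the adult libraries, a ratio of means of 1.47. This share was still higher in each adult library than in each neonatal library (exact permutation test, p = 0.10). At the promoter alone it was not. The neonatal shares above come wholly from the peak at the start, while adult promoter peaks took 89.2, 95.1 and 83.7 bp per Mb. By assignment, the neonatal promoter shares were 0, 123 and 0 bp per Mb, and the ages overlapped (exact permutation test, p = 0.40).

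**Figure D2:**
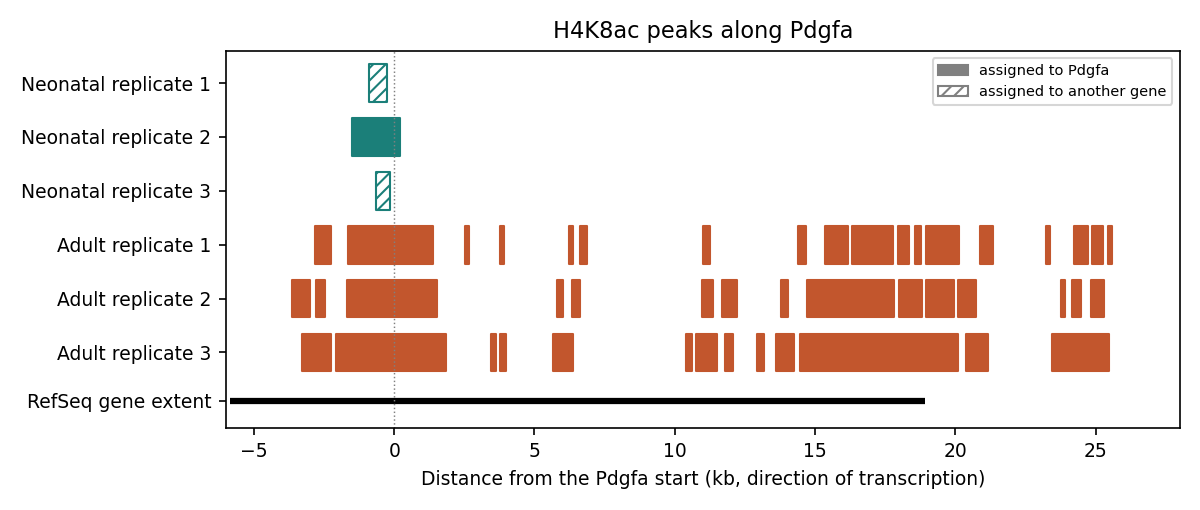
H4K8ac peaks along Pdgfa in each library (rows), placed by distance from the RefSeq start in kb in the direction of transcription; filled bars are assigned to Pdgfa, hatched bars to another gene, and the black line is the RefSeq gene. The 3 neonatal libraries have 1 peak each, at the start, and the adult libraries 18, 15 and 13 peaks in the range counted by position.

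The Pdgfa peaks formed 14 regions by position, of which 1 was marked in all 6 libraries and 13 in adult libraries only. The shared region was the start, from -2069 to +1842 bp, with 632, 1692 and 485 bp covered in the neonatal libraries and 3014, 3201 and 3912 bp in the adult libraries. The adult promoter peak was a single block in each library and among the strongest of its list, at place 981 of 72278, 174 of 72661 and 1442 of 77002. Its fold enrichment by the authors, within each list, was 20.2, 20.8 and 12.4. That of the peak at the start in the neonatal libraries was 7.39, 9.28 and 4.33.

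The longest Pdgfa region spanned the 3′ end of the gene, from +14404 to +21356 bp (chr5:138973588-138980540). It was covered for 4792, 5547 and 6420 bp in the adult libraries and for 0 bp in each neonatal library. Peaks in it carried the authors' classes 3′ UTR, exon, intron and distal intergenic. Another 4 regions were marked in all 3 adult and 0 neonatal libraries. The region from -3648 to -2252 bp lay upstream of the RefSeq start but within the RefSeq gene extent, around another annotated start at -2426 bp. The others lay downstream in the gene (+5674 to +6867 bp and +10758 to +11488 bp) and beyond its end (+23464 to +25593 bp). Farther downstream, another region assigned to Pdgfa (+45976 to +47106 bp) had 359, 311 and 1118 bp in the adult libraries and none in the neonatal libraries.

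At Pdgfc, whose product is the latent second ligand of receptor alpha (ENSMUSG00000028019.9, chr3:81036416-81214040, plus strand), the start was marked in all 6 libraries and the long gene body in adult cells. Assigned peaks, all of the promoter class, covered 525, 1236 and 492 bp in the neonatal libraries and 1646, 2087 and 2130 bp in the adult libraries. As for 60% of the 23433 genes, each adult value exceeded each neonatal value, with means of 751 ± 420 bp and 1954 ± 268 bp (SD, n = 3 each), a ratio of 2.60 (exact two-sided permutation test, p = 0.10; adjusted p = 0.166 over 23433 genes). All 6 libraries shared 492 bp, chr3:81036530-81037021 (+114 to +605 bp), which is the whole peak of neonatal replicate 3. The authors' fold enrichment of the strongest peak was 5.57, 5.28 and 5.31 in the neonatal libraries and 15.5, 11.9 and 14.2 in the adult libraries. Per Mb covered the order turned round: 176, 90.1 and 211 bp per Mb in the neonatal libraries and 39.3, 47.1 and 35.0 bp per Mb in the adult libraries.

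**Figure D3:**
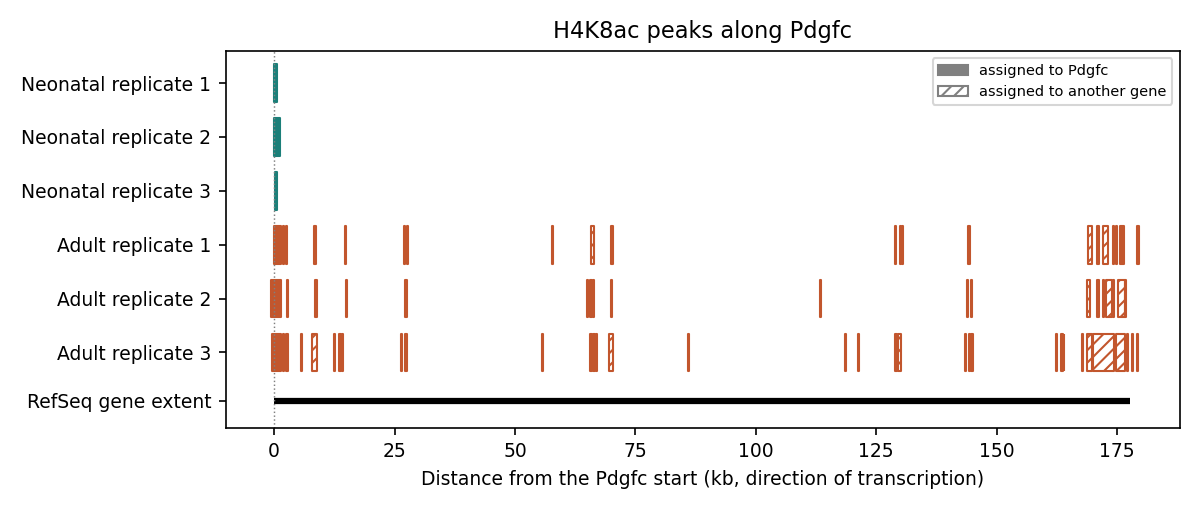
H4K8ac peaks along Pdgfc in each library (rows), by distance from the RefSeq start in kb; filled bars are assigned to Pdgfc, hatched bars to another gene, and the black line is the RefSeq gene. The 3 neonatal libraries have 1 peak each, at the start, while adult peaks run through the gene and gather at its 3′ end.

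Most of the adult mark along Pdgfc is listed under another name. Over the gene and 10000 bp on both sides the adult libraries had 22, 19 and 33 peaks, of which 20, 18 and 31 were assigned to the gene model Gm16000, while each neonatal library had 1. By position, adult peaks covered 9224, 9087 and 18771 bp against the same 525, 1236 and 492 bp in the neonatal libraries. The adult mean of 12361 ± 5552 bp was 16.5 times the neonatal mean (n = 3 each; exact permutation test, p = 0.10; adjusted p = 0.143), in the order that 69.7% of the 26558 genes share. Per Mb covered, the values by position overlapped between the ages (exact p = 0.20).

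The 39 regions along Pdgfc comprised 1 marked in all 6 libraries, 38 in adult libraries only and 8 of these in all 3 adult libraries. The largest ones lay at the 3′ end. From +170031 to +174351 bp the adult peaks covered 1810, 2165 and 4313 bp, and from +174748 to +176691 bp they covered 996, 1439 and 1827 bp. Intronic regions marked in each adult library included one around +66 kb (+65483 to +66565 bp; 795, 557 and 882 bp). Of the 38 adult regions, 23 were seen in a single library.

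**Figure D4:**
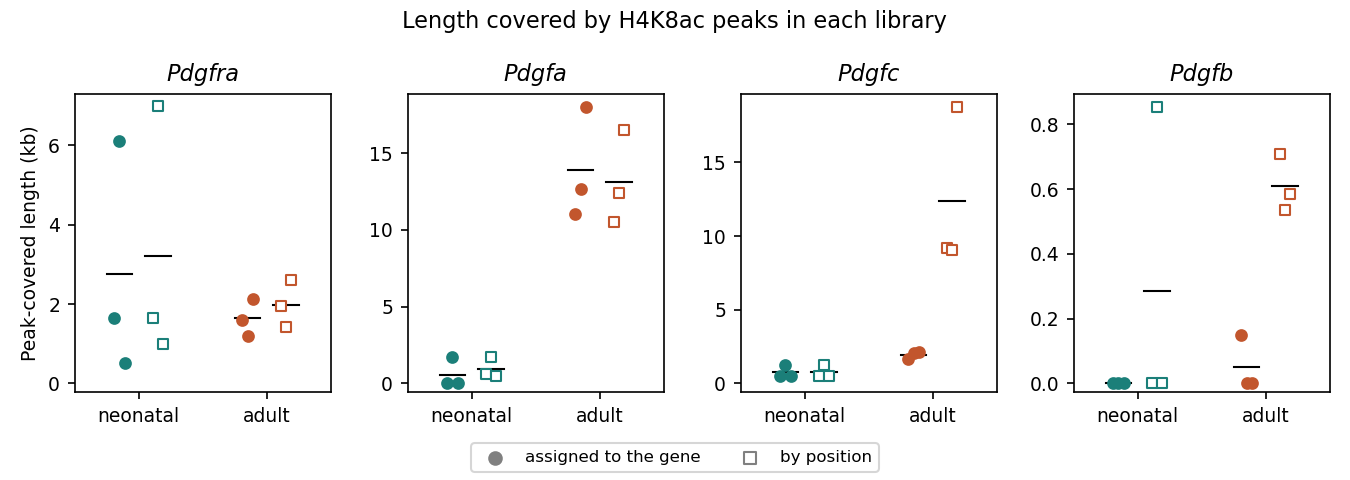
Length under H4K8ac peaks (kb) for Pdgfra, Pdgfa, Pdgfc and Pdgfb in the 3 neonatal and 3 adult libraries; filled circles are peaks assigned to the gene, open squares peaks by position, and bars the means (the vertical scale differs between panels). Pdgfra is the panel in which the neonatal mean lies above the adult mean in both counts, and Pdgfa and Pdgfc have adult points above all neonatal points.

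Pdgfb, the gene of the ligand that binds both receptors (ENSMUSG00000000489.7, chr15:79995865-80024614, minus strand), had little of the mark. Its only assigned peak was 150 bp long, in adult replicate 1 (chr15:80014043-80014192). By position, a region within the gene (+1746 to +2625 bp), assigned to Gm41361, was covered for 0, 853 and 0 bp in the neonatal libraries and 559, 537 and 585 bp in the adult libraries. In total the by-position means were 284 ± 492 bp and 610 ± 88.8 bp and overlapped between the ages (SD, n = 3 each; exact permutation test, p = 0.40, adjusted p = 0.479 over 26558 genes). Pdgfd, the gene of the ligand of receptor beta (chr9:6168363-6534284, plus strand), had no peak in any of the 6 libraries, assigned or by position, within 385.9 kb. A missing peak says that the signal did not pass the authors' threshold at the depth of that library, which the peak lists do not give.

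The authors' deposited table of differential sites, all listed at an adjusted p under 0.05, gives a second reading from the same libraries. Of its 43888 sites, 43715 are 400 bp wide. In sign, 99.4% of all sites have a positive log2 fold change and 0.579% a negative one. The table names no direction, but positive sites overlapped peaks of the adult lists in 85.0% to 96.7% of cases and of the neonatal lists in 10.3% to 27.8%, so positive values were read as higher in adult cells. Matched through peaks, 13 sites of the authors' deposited table belonged to the members, 12 positive and 1 negative, with a median log2 fold change of 3.04, against 2.41 over all its sites.

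The 1 negative site of the members was that of Pdgfra. In the authors' deposited table this site, chr5:75153261-75153660 (+1209 bp at its centre), has a log2 fold change of -1.23 and an adjusted p of 0.0270. It lies in the region marked in all 6 libraries, and no other listed site fell in the gene or 10000 bp around it. Pdgfa had 10 sites in the authors' deposited table, all positive, with a median log2 fold change of 3.08. By the authors' deposited table they ran from 1.77 at the start (-605 bp, adjusted p = 2.59e-05) to 4.91 in an intron (+11199 bp, adjusted p = 5.60e-06). The site in the 3′ UTR of Pdgfa (+18204 bp) has a log2 fold change of 4.23 and an adjusted p of 7.29e-15, again from the authors' deposited table. For Pdgfc the authors' deposited table has 2 sites by assignment, 1.89 near the start (+299 bp, adjusted p = 1.55e-06) and 5.69 at +1928 bp (adjusted p = 2.93e-06). By position Pdgfc had 16, all positive, with a median of 2.96 and the highest value, 5.99, at +144727 bp in the authors' deposited table. At both Pdgfa and Pdgfc the start, which neonatal cells also marked, had the smallest log2 fold change of the gene in the authors' deposited table. Pdgfb and Pdgfd had no listed site.

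**Figure D5:**
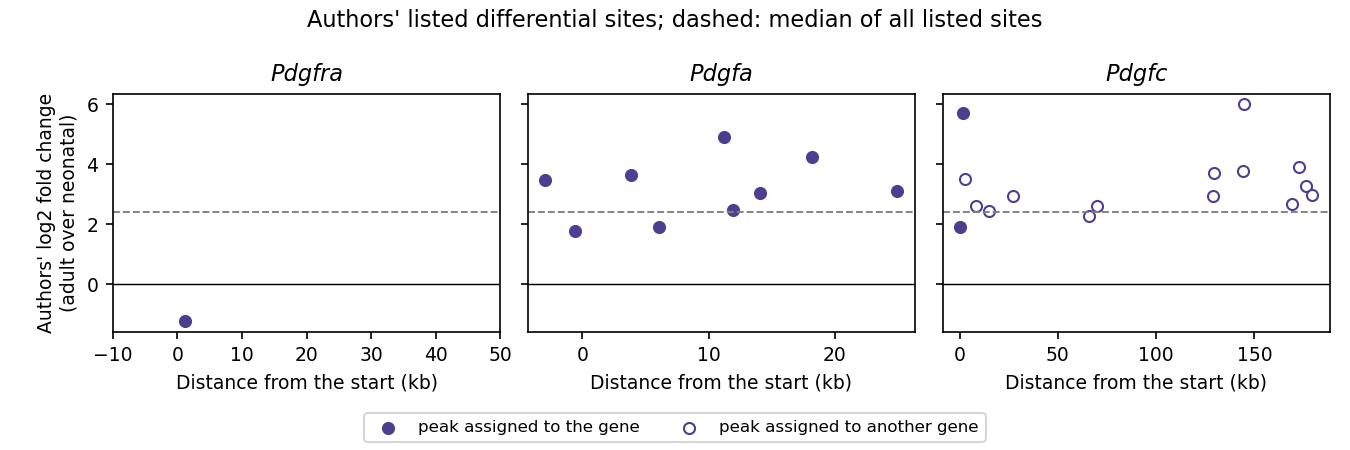
Log2 fold change (adult over neonatal) of each differential site of the authors' deposited table against its distance from the start of Pdgfra, Pdgfa and Pdgfc in kb, taken by position; filled points are sites in peaks assigned to the gene, open points in peaks assigned to another gene, and the dashed line is the median of all listed sites, 2.41. The only Pdgfra site lies at -1.23, and all sites of Pdgfa and Pdgfc lie above 0.

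Within 200 kb on both sides of the Pdgfra start, the authors' deposited table lists 2 other sites. Both are negative, as are 0.579% of all sites in the authors' deposited table. One lies at chr5:75336896-75337295, in a peak assigned to Gm18345. In the authors' deposited table it has a log2 fold change of -2.01 and an adjusted p of 0.00317. The other lies at chr5:75067310-75067709, in a peak assigned to Gsx2, a homeobox gene of forebrain progenitors. In the authors' deposited table that site has a log2 fold change of -2.58 and an adjusted p of 0.000634. Peaks assigned to Gsx2 covered 198, 1505 and 198 bp in the neonatal libraries and 0 bp in each adult library (exact permutation test, n = 3 each, p = 0.10, adjusted p = 0.166). The other neighbours examined did not share this order, and of these Fip1l1, Lnx1, Kit and Kdr had no assigned peak within the 200 kb. At the 6 neighbours, Gsx2 included, the authors' deposited table lists 3 positive sites and 1 negative site. Chic2 had 369, 944 and 548 bp in the neonatal libraries and 1140, 1046 and 1055 bp in the adult libraries, and Fip1l1 376, 742 and 312 bp against 1131, 744 and 1139 bp. Kit, the gene of a related receptor tyrosine kinase, had 0, 917 and 0 bp against 574, 633 and 593 bp, which overlapped. Kdr, the gene of an endothelial growth factor receptor, had no peak in the neonatal libraries and 667, 701 and 1628 bp in the adult libraries, and Lnx1 had 0, 1156 and 0 bp against 328, 0 and 0 bp.

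Pdgfrb, the gene of receptor beta, which pericytes and fibroblasts use, had an assigned peak in 1 library only, of 435 bp in neonatal replicate 2. Of 33 further genes of PDGF signalling, including Pdgfrb, 27 had every adult library above every neonatal library in assigned length and none had the reverse, beside 60% and 0.303% of all genes. Their median difference, adult minus neonatal, was 2065 bp, against 661 bp over all genes. All 19 genes of the intracellular cascade, such as the adaptor Grb2, the kinase Fyn and the phosphatase Ptpn11, were among the 27. So were 3 of 4 proteases that process or could process ligands (Furin, Plat and Plau), 1 of 3 binding proteins (Sparc) and 4 of 5 negative regulators (Cbl, Cblb, Ptprj and Spry2). Fyn had 697, 4125 and 316 bp in the neonatal libraries and 14886, 14921 and 22627 bp in the adult libraries. The 6 genes whose ages overlapped were Pdgfrb, Pdgfrl, Pcsk5, Nrp1, Lrp1 and Spry4. The authors' deposited table lists 141 sites at the 33 genes, all positive, as are 99.4% of its sites over all genes.

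The genes most like Pdgfra were those with the smallest root mean square difference in log2 of assigned length plus 100 bp over the 6 libraries, among 4332 genes with a peak in all 6. They were Gm35040 (0.43), Elfn1 (0.51), Bmp7 (0.53), 9630014M24Rik (0.55) and Gm12571 (0.55). Bmp7, a bone morphogenetic protein gene, had 1642, 6454 and 974 bp in the neonatal libraries and 1328, 558 and 2259 bp in the adult libraries. As at Pdgfra, its highest value was in neonatal replicate 2 and the ages overlapped. Bmp7 was chosen for closeness to Pdgfra in these same 6 values, so this likeness is no separate result.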

How the data were processed

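The authors sorted OPCs, immunoprecipitated H4K8ac and deposited 1 peak list per library. Per the submitters' processing notes, the tools used were Trim Galore, Bowtie2 2.4.5, SAMtools, deepTools, MACS2, DiffBind and ChIPseeker, on GRCm38; their settings, and whether input was used to call peaks, are not given in the sources used here. Per the file headers, each peak has a score, a fold enrichment (a linear ratio), −log10 p and −log10 q, with a nearest gene. The largest q-value per deposited list was 0.0427 to 0.0489. The authors also deposited differential sites, each with its log2 fold change, p-value and adjusted p. Fold enrichments are the authors' and describe a peak within its own list.

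From the lists, the bases under the peaks of each gene were summed per library after merging overlaps, because the lists hold no read counts. A difference was tested over all genes with an exact two-sided permutation test of the 20 arrangements of 3 against 3 libraries (checked on simulated data), with Benjamini-Hochberg adjustment over all genes. By position, any peak overlapping the RefSeq gene with 10000 bp on both sides counted by its overlapping bases. The window of 3000 bp around the start, and the counts by position per Mb, among the strongest peaks or without neonatal replicate 2, were added after the data had been seen. Positions are 1-based, and distances run from the RefSeq start (for Pdgfb, from the transcript start in its peak list). Sequencing depth is unknown. Alternatives were the 7353 strongest peaks, q under 0.005, length per Mb covered, a narrower promoter, merging of peaks within 1000 bp and leaving out each library. The 5 genes, the PDGF signalling list, the cell type markers and the neighbours were chosen with earlier results of these data known. All 5 members are described; neighbours and signalling genes were taken from those lists, and the genes most like Pdgfra by the distance stated. Computation used Python 3.11.15, with pandas 2.3.3, numpy 2.4.6 and matplotlib 3.10.9.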

Additional observations from a re-analysis of the deposited data

How the results depend on the processing

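Of 152 values of Pdgfra, Pdgfa, Pdgfb, Pdgfc and the site count recomputed under other settings, 137 kept their direction, 8 changed sign and 7 fell to 0. Of the 126 that kept it in the same unit, 20 changed in size by over 1.5 times, such as the Pdgfa difference in covered length among the 7353 strongest peaks (5082 bp). Without neonatal replicate 2, the Pdgfra differences in covered and in promoter length, adult minus neonatal, were both 561 bp, and over the 6 single-library omissions they ranged from -2244 to 561 bp and from -1991 to 561 bp. By position without that library the Pdgfra difference in covered length was 674 bp. The Pdgfra peak number turned from -1.67 to 1 when peaks within 1000 bp were merged. Per Mb covered, the Pdgfc differences in covered and promoter length were both -119 bp per Mb. The Pdgfb difference by position was -284 bp among the 7353 strongest peaks and -7.83 bp per Mb covered. The Pdgfb covered length, promoter length and peak number gave 0 under the 7353 strongest peaks and without adult replicate 1 (over the omissions, 0 to 75 bp, 0 to 75 bp and 0 to 0.50 peaks), because its only assigned peak was then absent. The Pdgfc peak number gave 0 after merging. The cause of the other changes was not tested. No omission turned the Pdgfa difference in covered length (11296 to 14771 bp) or that of Pdgfc (1074 to 1446 bp). With 3 libraries per age no exact permutation test could fall below p = 0.10, so no p-value here bears on stability. A replicate block on equal replicate numbers left the differences as they were (Pdgfra -1122 bp, Pdgfa 13337 bp, Pdgfc 1203 bp), with a smallest possible sign-flip p of 0.25. Deviations of libraries with the same number correlated at -0.0586, 0.0149 and 0.0812, and those with different numbers at -0.104 to 0.0930. Such values cannot decide whether a number marks a shared animal or day, which the labels do not say. Depth is unknown, and the short neonatal lists limit what a missing peak can show.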
